A study of Arabidopsis thaliana with 10 samples.

Results

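The late embryogenesis abundant (LEA) protein genes of Arabidopsis thaliana were followed through mature pollen in 10 RNA-seq libraries. The 52 genes were taken by locus identifier from the 27394 annotated genes, and include the dehydrins, SAG21 and AT3G02480. All 52 were listed in every library.

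LEA proteins are small, hydrophilic and largely unfolded proteins that accumulate when cells lose water, first described in ripening seeds. They fall into sequence classes, of which the dehydrins bind membranes and ions, and the LEA_4 proteins form helices on drying and protect membranes and enzymes. Many are induced by abscisic acid (ABA) through the basic leucine zipper factors ABI5 and ABF1 to ABF4, which read the ABRE motif, or by cold through the CBF factors, which read the DRE motif. Pollen is shed dry in Arabidopsis, and its vegetative cell stores mRNA that is used on germination.

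The study expressed RTL1, an RNase III-like enzyme that blocks small interfering RNA (siRNA) production, in pollen of Col-0 plants. It also used nrpd1a-3, a mutant of the largest subunit of RNA polymerase IV, which starts siRNA production. Each of the 5 groups had 2 libraries. WT Col-0 was unsorted wild-type pollen. pLAT52::RTL1 pollen carried Myc-tagged RTL1 under the LAT52 promoter, which acts in the late microspore and then mainly in the vegetative cell. pMGH3::RTL1 pollen carried it under MGH3, a promoter of the male germline. Independent transgenic lines were used for each construct. WT FTL and nrpd1a-3 FTL pollen came from the same plants, heterozygous for nrpd1a-3 and for FTL1230, a DsRed transgene linked to NRPD1a and expressed in pollen, and were separated by fluorescence-activated sorting into DsRed-positive wild-type and DsRed-negative mutant grains. Plants of every group were in the Col-0 background and were grown in a greenhouse. Sorting, marker line and experiment cannot be told apart wherever WT FTL is set against WT Col-0. Where nrpd1a-3 FTL is set against WT FTL, the nrpd1a-3 mutation and the lack of the DsRed transgene cannot be told apart.

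Between 43490027 and 53471964 reads per library fell in genes and transposable elements (TEs). RTL1 had 138 to 270 reads in the pLAT52::RTL1 libraries, 134 and 156 in the pMGH3::RTL1 libraries and 0 in the other 6. NRPD1, the gene mutated in nrpd1a-3, had at most 12 reads in any library, so the mutation could not be checked at this depth. All 10 sperm cell and all 10 vegetative cell markers were detected in every group. The vegetative markers took 4.45% to 4.96% of gene reads in the unsorted libraries and 0.596% to 1.39% in the sorted ones. In bulk pollen, fewer cells of a type and less RNA per cell cannot be told apart. nrpd1a-3 FTL replicate 1 stood apart from the other sorted libraries by its reads of leaf markers, described with the cold-regulated genes.

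A gene was taken as detected in a group where both libraries held at least 10 reads. In WT Col-0, 17 of the 52 LEA genes were detected, against 35.5% of all genes. Over the 5 groups, 22 LEA genes were detected in at least 1 group and 13 in every group. Another 11 had 0 reads in every library, as did 18.8% of all genes, and 8 had at most 3 reads in any library. The remaining 11 had more than 3 reads somewhere but did not reach the limit. A count of 0 allows up to 3 reads if each is counted singly, and more if both mates of a pair are counted. A low level of these genes is thus not detectable at this depth.

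Among the genes that were not detected, EM1 and GEA6 (the class LEA_5 proteins Em1 and Em6 of the dry embryo) had at most 2 reads and 1 read in a library. RAB18, a dehydrin used as a marker of the ABA response, had at most 3. XERO1, another dehydrin, had at most 1 read. ECP63, an embryonic LEA_4 gene, and M17 had 0 reads in all 10 libraries, and M10 had at most 4. The LEA_5 and AtM classes (2 genes each) thus had no detected member. Of the 18 LEA_4 genes, 6 were detected in at least 1 group and 6 had 0 reads throughout. Of the 10 dehydrins, 5 were detected in at least 1 group.

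Among the 18 LEA regulators, 5 were detected in WT Col-0: EEL, AREB3, CBF2, DREB2A and DREB2B. Another 7 had at most 3 reads in any library, among them the seed factors ABI3 and ABI5 (at most 2) and ABI4, LEC2 and BZIP67 (0 in all 10). Of the 7 genes of the ABA signalling core (phosphatases and the SnRK2 kinases), 5 were detected, led by the phosphatase gene PP2CA with 1238 and 1476 reads in WT Col-0.

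SAG21 was by far the most abundant LEA transcript. Levels were compared between genes as normalised reads per kb of transcript, where normalised reads are counts divided by the library's size factor. SAG21, a class LEA_3 protein of mitochondria that responds to oxidative stress, had 241833 ± 7910 (SD, n = 2) normalised reads per kb in WT Col-0 and ranked 37 among 26907 genes. AT5G27980, a seed maturation protein (SMP) gene, followed at 14278 ± 3048. UNE15, a LEA_4 gene named from a female gametophyte screen, stood at 13407 ± 3180. These levels of AT5G27980 and UNE15 lay within 1 SD of each other.

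Below these came AT2G46140 (LEA_2) at 4264 ± 251 and AT3G02480 (LEA_4) at 2720 ± 929 normalised reads per kb. The small dehydrin AT1G54410 had 951 ± 288 and the LEA_4 gene AT4G13230 had 406 ± 19.4. RAB28 (SMP), AT2G33690 (LEA_6), AT2G18340 (LEA_4), AT2G23120 (LEA_6) and AT4G36600 (LEA_4) completed the 12 highest, at 43.9 to 166. RAB28 and AT2G33690 lay within 1 SD of each other, as did AT2G33690 and AT2G18340. The median over all genes above 0 was 14.7, so the 12 genes stood above it.

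**Figure D1:**
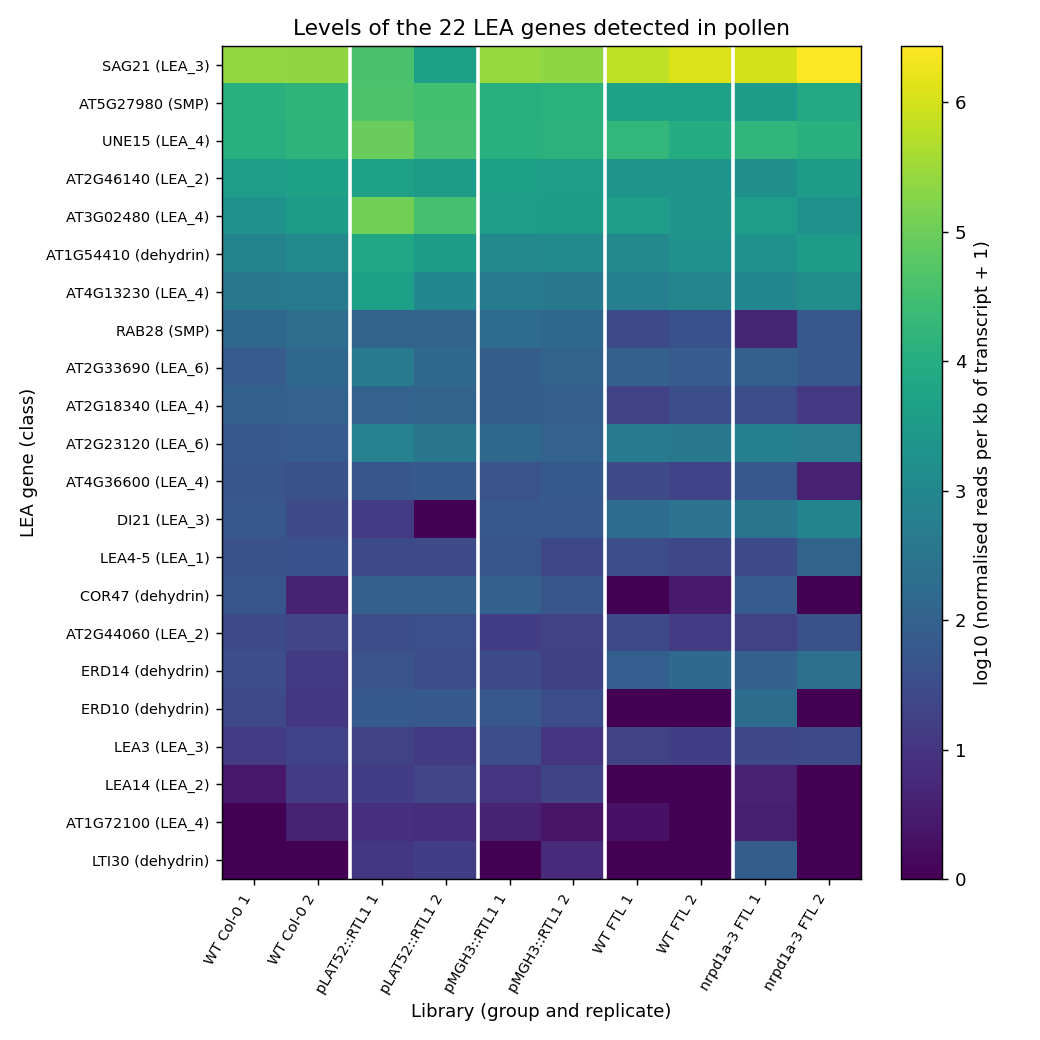
Heat map of log10 (normalised reads per kb of transcript + 1) for the 22 LEA genes detected in at least 1 group (rows, with class) in the 10 libraries (columns, 2 per group). SAG21 is the highest row except in the pLAT52::RTL1 libraries, and ERD10, COR47 and LTI30 stand out in only 1 of the 4 sorted libraries.

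As a share of all gene reads, the 52 genes took 0.403% and 0.402% in the WT Col-0 libraries, close to the 0.436% and 0.384% of pMGH3::RTL1. The pLAT52::RTL1 libraries lay to either side of these, at 0.535% and 0.193%. The sorted libraries were above all others, with 0.991% and 1.55% (WT FTL) and 1.41% and 2.205% (nrpd1a-3 FTL). The Wilson 95% intervals of these shares were at most 0.004 percentage points to either side and cover counting error only. SAG21 alone took 89.0% and 85.3% of the LEA reads in WT Col-0, only 15.5% and 4.33% with pLAT52::RTL1, and 95.8% to 98.9% in the sorted libraries. Without SAG21 the share was 0.0442% and 0.0590% in WT Col-0. It was 0.0469% and 0.0511% with pMGH3::RTL1 but 0.452% and 0.185% with pLAT52::RTL1. The make-up of the LEA reads by class moved with this. The LEA_3 class held 87.0% of LEA reads in WT Col-0 and 12.5% with pLAT52::RTL1, whereas LEA_4 held 5.16% and 59.9% and SMP 5.60% and 21.6%. These shares were not tested.

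Sequences upstream of 5 LEA genes are shown as examples with and without the ABRE. AT3G02480 and AT1G54410 were the only 2 of the 7 genes higher in pLAT52::RTL1 with its core in the windows used. SAG21 and DI21 were the 2 that were lower, and RAB18 was not detected. Each is the 250 bases before the gene start in the RefSeq annotation of TAIR10.1, 5′ to 3′ on the gene's strand. That start can lie upstream of the interval whose reads were counted. Capitals mark the core of the ABRE (ACGTG, or CACGT on the other strand) and of the DRE (CCGAC, or GTCGG on the other strand).
AT3G02480, chr3:511970-512219, plus strand: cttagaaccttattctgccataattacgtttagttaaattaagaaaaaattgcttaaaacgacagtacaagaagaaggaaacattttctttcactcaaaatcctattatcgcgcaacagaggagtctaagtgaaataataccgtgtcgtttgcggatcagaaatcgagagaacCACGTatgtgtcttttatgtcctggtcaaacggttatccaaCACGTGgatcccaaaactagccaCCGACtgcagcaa
AT1G54410, chr1:20310851-20311100, minus strand: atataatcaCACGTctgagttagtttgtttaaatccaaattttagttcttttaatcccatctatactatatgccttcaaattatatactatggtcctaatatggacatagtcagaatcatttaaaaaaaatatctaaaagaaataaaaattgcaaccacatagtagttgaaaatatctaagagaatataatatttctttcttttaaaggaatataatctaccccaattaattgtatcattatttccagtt
SAG21, chr4:1047106-1047355, minus strand: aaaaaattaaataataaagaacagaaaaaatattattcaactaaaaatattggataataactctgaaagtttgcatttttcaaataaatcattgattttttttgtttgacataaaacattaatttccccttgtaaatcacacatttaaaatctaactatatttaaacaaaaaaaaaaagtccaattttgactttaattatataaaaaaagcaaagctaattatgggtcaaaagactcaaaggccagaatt
DI21, chr4:9028012-9028261, plus strand: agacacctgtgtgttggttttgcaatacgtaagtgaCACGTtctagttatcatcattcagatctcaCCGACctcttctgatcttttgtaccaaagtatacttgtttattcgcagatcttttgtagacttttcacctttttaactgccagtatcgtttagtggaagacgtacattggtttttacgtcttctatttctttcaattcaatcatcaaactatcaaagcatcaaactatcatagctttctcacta
RAB18, chr5:26519448-26519697, minus strand: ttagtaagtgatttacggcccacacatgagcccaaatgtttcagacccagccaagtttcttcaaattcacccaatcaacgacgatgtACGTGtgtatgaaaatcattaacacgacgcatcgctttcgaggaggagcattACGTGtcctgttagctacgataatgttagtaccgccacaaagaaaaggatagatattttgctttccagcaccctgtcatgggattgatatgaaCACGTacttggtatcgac

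The ABRE core was found on either strand in 37 of the 52 LEA windows (71.2%) and in 22.9% of the 27443 windows of protein-coding genes. The DRE core was found in 19 (36.5%), against 12% of all windows. Of the 17 LEA genes detected in WT Col-0, 9 had the ABRE core, as did 28 of the other 35. Of the genes called in pLAT52::RTL1 against WT Col-0, it was found in 2 of the 7 that were higher (28.6%) and in 1 of the 2 that were lower. Some windows lie away from the interval whose reads were counted. That of UNE15, 1 of the 7, spans 7883927 to 7884176, and its counted interval ends at 7880383. For COR47 the window starts at 7086874 and the interval ends at 7085772. AT3G02480 had 3 ABRE matches, 2 of them the overlapping strands of the palindrome CACGTG, and 1 DRE match. SAG21 had neither core. A match is a string of letters and not evidence of a site in use.

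In pLAT52::RTL1 pollen against WT Col-0, 7 of the 52 LEA genes were higher and 2 were lower, among 18 that passed the filter on low counts. Over all features tested, 14.3% were called, 6.53% higher and 7.77% lower. Scaling by total reads instead moved the median of all features by 0.48 on the log2 scale and gave 2874 features higher and 420 lower, where median-of-ratios factors gave 718 and 855, and the 9 LEA genes were called in the same directions. The genes that rose were AT3G02480, AT2G23120, AT4G13230, AT1G54410, UNE15, ERD10 and AT5G27980. The genes that fell were both LEA_3 genes, SAG21 and DI21. The median log2 fold change of the 18 LEA genes was 1.05, beside -0.01 over all features tested. The 18 include genes that passed the filter because of their level in pLAT52::RTL1.

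AT3G02480 showed the largest rise among the LEA genes called. This short LEA_4 gene of 68 codons lies on chromosome 3 from 512312 to 513027 on the plus strand (TAIR10). It had 926 and 1516 normalised reads in WT Col-0, compared with 51668 and 15484 for pLAT52::RTL1, 1736 and 1655 for pMGH3::RTL1. The sorted libraries held 1714 and 1043 (WT FTL) and 1840 and 921 (nrpd1a-3 FTL). Only the pLAT52::RTL1 libraries stood away from the rest, and the lower of them was still above all 8 others. The log2 fold change against WT Col-0 was 4.79 (SE 0.71, adjusted p = 6.5e-10 by DESeq2). It was 3.65 without pLAT52::RTL1 replicate 1 and 5.42 without replicate 2. Here and below, leaving out a library leaves its group with 1 library, which is assumed to vary like the other groups, so a call made that way is no sign of stability. By rank of level per kb the gene moved from 767 in WT Col-0 to 69.

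UNE15 (chromosome 4, 7879561 to 7880383, minus strand) had 6751 and 9472 normalised reads in WT Col-0, compared with 55345 and 20686 for pLAT52::RTL1. The 6 libraries of the other groups held 5894 to 11016, so only pLAT52::RTL1 stood apart. The log2 fold change was 2.23 (SE 0.59, adjusted p = 0.0019). Without WT Col-0 replicate 1 it was 1.99 and not called (adjusted p = 0.15), and without pLAT52::RTL1 replicate 1 it was 1.34.

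AT4G13230, a further LEA_4 gene (chromosome 4, 7675653 to 7676680, minus strand), had 236 and 253 normalised reads in WT Col-0, compared with 2555 and 592 for pLAT52::RTL1. Its log2 fold change was 2.70 (SE 0.81, adjusted p = 0.0094). The pLAT52::RTL1 libraries were far apart but both above WT Col-0. The sorted libraries held 369 and 513 (WT FTL) and 579 and 888 (nrpd1a-3 FTL), the last of them above the lower pLAT52::RTL1 library. The log2 fold change was 1.26 without pLAT52::RTL1 replicate 1 and 3.41 without replicate 2. Without WT Col-0 replicate 1 or 2 it was 2.63 or 2.75 and was not called (adjusted p = 0.21 and 0.13).

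AT5G27980, the SMP gene (chromosome 5, 10015774 to 10016726, minus strand), rose by the smallest fold of the 7 but from a high level. It had 8946 and 12127 normalised reads in WT Col-0, compared with 31051 and 22228 for pLAT52::RTL1, with no overlap. That gave a log2 fold change of 1.34 (SE 0.21, adjusted p = 1.0e-08), and 1.06 to 1.58 without 1 of these 4 libraries. It shares 65 bases with AT5G27990 on the other strand, and whether strand was used in counting is not given in the sources used here.

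AT2G23120 (LEA_6, chromosome 2, 9842043 to 9842634, plus strand) had 36.0 and 43.3 normalised reads in WT Col-0, compared with 414 and 188 for pLAT52::RTL1 and 83.3 and 63.0 in pMGH3::RTL1. These 3 groups did not overlap. The sorted libraries held 252 and 234 (WT FTL) and 347 and 316 (nrpd1a-3 FTL), all above the lower pLAT52::RTL1 library. The log2 fold change against WT Col-0 was 2.92 (SE 0.41, adjusted p = 3.2e-11), and 2.23 without pLAT52::RTL1 replicate 1. Its tandem neighbour AT2G23110 had 0 reads in every library.

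Among the dehydrins, AT1G54410 (chromosome 1, 20309775 to 20310767, minus strand) had 544 and 841 normalised reads in WT Col-0, compared with 4579 and 2375 for pLAT52::RTL1. This was a log2 fold change of 2.33 (SE 0.46, adjusted p = 1.1e-05). The sorted libraries held 777 and 1414 (WT FTL) and 1440 and 2455 (nrpd1a-3 FTL), the last of them above the lower pLAT52::RTL1 library. ERD10, a cold- and drought-induced acidic dehydrin (chromosome 1, 7088003 to 7089606, minus strand), had 39.3 and 15.1 in WT Col-0, compared with 98.1 and 93.7 for pLAT52::RTL1. Its log2 fold change was 1.83 (SE 0.49, adjusted p = 0.0022). Without WT Col-0 replicate 1 it was 2.65, and without WT Col-0 replicate 2 it was 1.29 and not called (adjusted p = 0.16). Without pLAT52::RTL1 replicate 1 it was 1.79 and fell below the filter on low counts.

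SAG21 (chromosome 4, 1046204 to 1046997, minus strand) moved the other way. It had 171714 and 163950 normalised reads in WT Col-0, compared with 27485 and 2936 for pLAT52::RTL1, and 186335 and 155862 in pMGH3::RTL1. The pLAT52::RTL1 libraries were the lowest of all 10 but differed from each other by more, as a ratio, than the pair of any other group. The log2 fold change was -3.45 (SE 0.96, adjusted p = 0.0040). It was -5.85 without pLAT52::RTL1 replicate 1 and -2.59 without replicate 2. Without WT Col-0 replicate 1 or 2 it stayed near the same value, at -3.44 or -3.48, and was not called (adjusted p = 0.15 and 0.10). The annotated microRNA gene MIR2936 lies on the same strand and shares 180 bases with SAG21, so reads there cannot be assigned to either.

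DI21, the other LEA_3 gene that fell (chromosome 4, 9028461 to 9029423, plus strand), is drought-induced and had few reads in unsorted pollen. It had 36.0 and 20.7 normalised reads in WT Col-0, compared with 8.0 and 0 for pLAT52::RTL1. Its log2 fold change was -2.80 (SE 0.85, adjusted p = 0.010). The call was lost without WT Col-0 replicate 1 (-2.38, adjusted p = 0.78) or pLAT52::RTL1 replicate 2 (-1.80, adjusted p = 0.13). Without WT Col-0 replicate 2 or pLAT52::RTL1 replicate 1 the gene fell below the filter on low counts. It was also not called with a filter of 10 counts in 2 libraries (adjusted p = 0.24) or in a fit of these groups alone (adjusted p = 0.069). LEA3, the third LEA_3 gene with reads, had 5.6 to 20.8 normalised reads in all 10 libraries.

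**Figure D2:**
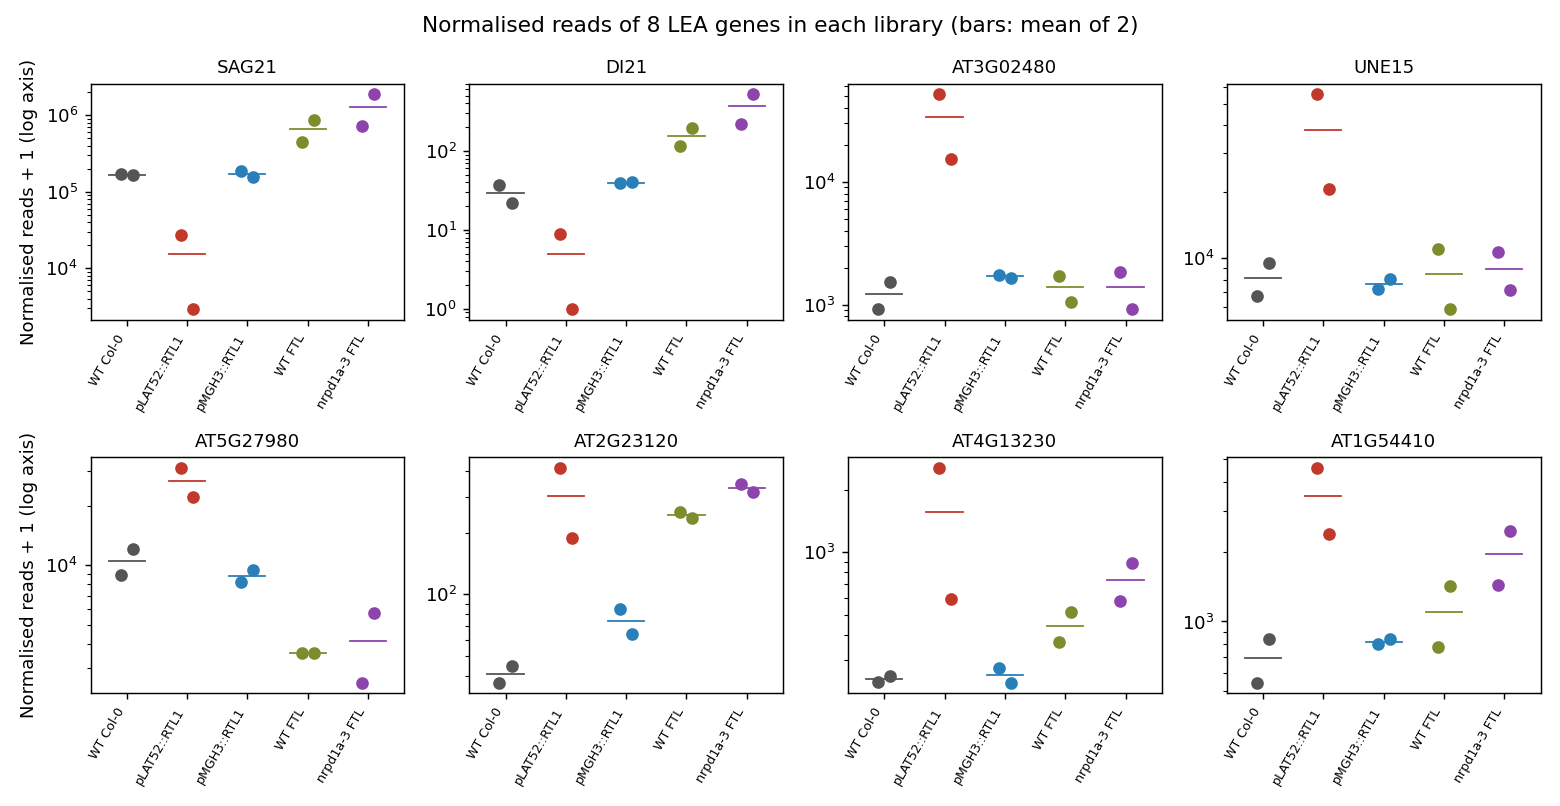
Normalised reads + 1 (log axis) of 8 LEA genes in each library, by group, with bars at the mean of the 2 libraries. By mean, SAG21 and DI21 are lowest in pLAT52::RTL1 and highest in nrpd1a-3 FTL, but for SAG21 the nrpd1a-3 FTL and WT FTL libraries overlap. AT3G02480 and UNE15 are high only in pLAT52::RTL1.

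Of the genes not called, AT2G33690 (LEA_6) had 27.0 and 58.4 normalised reads in WT Col-0, compared with 168 and 60.8 for pLAT52::RTL1, a log2 fold change of 1.42 (adjusted p = 0.053). It was called with total-read scaling (1.92, adjusted p = 0.0023), and just past the threshold with TMM factors, with genes only and with the filter of 10 counts in 2 libraries (adjusted p = 0.049, 0.049 and 0.039). It was also called without WT Col-0 replicate 2 (2.096) or pLAT52::RTL1 replicate 2 (1.99), but was at 0.96 without WT Col-0 replicate 1 and 0.49 without pLAT52::RTL1 replicate 1. AT2G33685 overlaps it by 297 bases on the other strand. AT2G46140, the fourth most abundant LEA transcript, had 3151 and 3424 in WT Col-0, compared with 3714 and 2599 for pLAT52::RTL1, with a log2 fold change of -0.06 (SE 0.20). RAB28, the other SMP gene detected, had 83.2 and 116 in WT Col-0, compared with 66.3 and 76.2 for pLAT52::RTL1 (-0.49, SE 0.36). The SMP genes AT5G27980 and RAB28 thus had estimates of opposite sign, of which the first was called.

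The genes of low abundance gave few calls. COR47 differed most between the WT Col-0 libraries, at 60.7 and 3.8, while both pLAT52::RTL1 libraries (113 and 116) and both pMGH3::RTL1 libraries (114 and 63.0) were higher. It was not called against either (log2 fold changes 1.83, SE 1.29, and 1.49), except with WT Col-0 replicate 1 left out, where only the library at 3.8 remained (4.90 and 4.56, adjusted p = 2.0e-06 and 0.0083). ERD14 had 49.1 and 37.8 with pLAT52::RTL1, overlapping WT Col-0 (0.77, SE 0.63). LEA4-5, a LEA_1 gene, had 33.7 and 35.8 in WT Col-0, compared with 22.5 and 25.2 for pLAT52::RTL1 (-0.55, SE 0.58). AT4G36600 and AT2G18340, long LEA_4 genes of 359 and 456 codons, had log2 fold changes of 0.42 (SE 0.42) and 0.11 (SE 0.28) and were not called. No read of LTI30 or COR15A was found in WT Col-0. LTI30 had 8.0 and 11.2 normalised reads with pLAT52::RTL1, a mean 3.09-fold above the floor of 3 reads per library. It fell below the DESeq2 filter and was called by edgeR (adjusted p = 0.038).

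Markers of the vegetative cell of pollen, and of leaf, moved in the same contrast. Of the 10 vegetative cell markers, 6 were lower and 1 was higher in pLAT52::RTL1, led by the receptor kinase genes ANX2 (-1.86) and BUPS2 (-1.65) and by the pectin methylesterase gene PPME1 (2.29). None of the 10 sperm markers was called. Of the 6 leaf markers tested, 3 were higher: LHCB1.1 (4.43), RBCS1A (3.03) and LHCB1.3 (1.42). All 10 leaf markers together took 0.00197% and 0.00210% of gene reads in WT Col-0, compared with 0.00235% and 0.00369% for pLAT52::RTL1. The ABA kinase gene SNRK2.2 was lower (-1.04, adjusted p = 0.0090), and no LEA regulator was called. The part of these cells in the LEA changes was not tested.

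**Figure D3:**
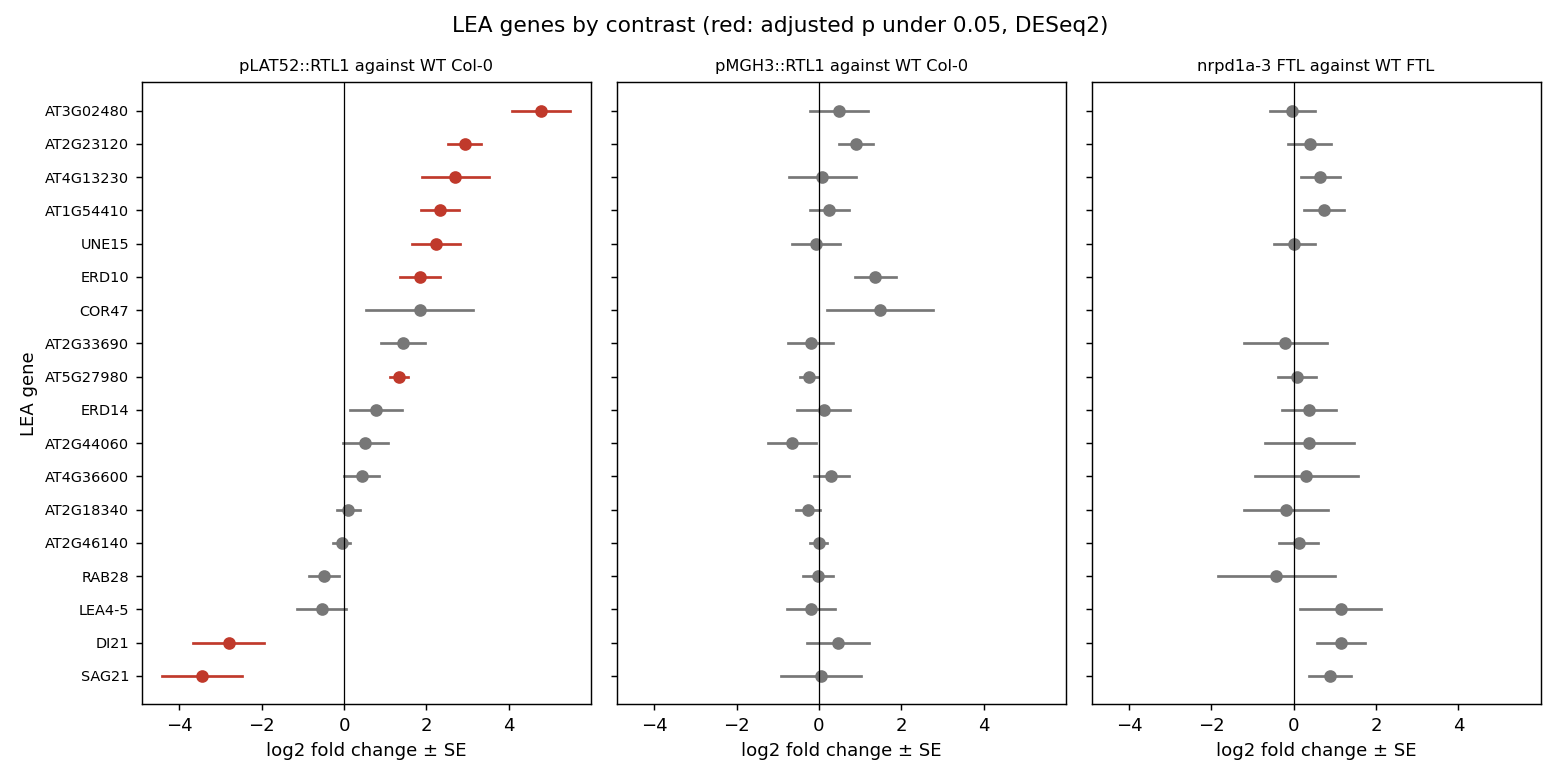
Log2 fold change ± SE of the 18 LEA genes tested in pLAT52::RTL1 against WT Col-0 (left), in pMGH3::RTL1 against WT Col-0 (middle) and in nrpd1a-3 FTL against WT FTL (right). Red marks an adjusted p under 0.05, which occurs only in the left panel, and ERD10 and COR47 are left out on the right because WT FTL had at most 3 reads.

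In pMGH3::RTL1 against WT Col-0, none of the 37 LEA genes tested was called, where 0.0217% of all features were (0.0145% higher and 0.00723% lower). edgeR called none either. Before adjustment, 2 LEA genes had p under 0.05 with DESeq2 and 3 with edgeR. ERD10 had 84.2 and 52.8 normalised reads in pMGH3::RTL1, above both WT Col-0 libraries, with a log2 fold change of 1.37 (SE 0.49). AT2G23120 had 0.90 (SE 0.42). The 95% interval of the log2 fold change was wide for SAG21 (-1.84 to 1.94) and AT3G02480 (-0.90 to 1.88), and narrower for AT5G27980 (-0.65 to 0.18). These intervals use a spread that the fit shares with the pLAT52::RTL1 pair, which held 27485 and 2936 normalised reads of SAG21. WT Col-0 held 171714 and 163950, and pMGH3::RTL1 held 186335 and 155862. The leaf marker RBCS1A was higher here too (3.14, adjusted p = 0.0037).

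The constructs were compared directly as well. In pLAT52::RTL1 against pMGH3::RTL1, 7 LEA genes were higher and 2 lower, beside 12.9% of all features called (5.53% higher, 7.36% lower). The 7 comprised AT3G02480 (4.30), AT4G13230 (2.61), UNE15 (2.3), AT1G54410 (2.08), AT2G23120 (2.02), AT2G33690 (1.62) and AT5G27980 (1.58), and the 2 were SAG21 (-3.50) and DI21 (-3.27). ERD10 differed by 0.46 (SE 0.46) and was not called. The pLAT52::RTL1 libraries are the same as those set against WT Col-0. Without pMGH3::RTL1 replicate 1 or 2, AT2G33690, AT4G13230, UNE15, SAG21 and DI21 were not called. Without pLAT52::RTL1 replicate 1, AT2G33690 was at 0.69 and not called, AT4G13230 was at 1.19, UNE15 at 1.41, AT2G23120 at 1.33, AT3G02480 at 3.16 and SAG21 at -5.89, and DI21 had 0 reads in the library that remained. Without pLAT52::RTL1 replicate 2, AT3G02480 was at 4.93, AT4G13230 at 3.33, SAG21 at -2.64 and DI21 at -2.27. AT2G33690 was not called with edgeR (adjusted p = 0.060) or without independent filtering (0.059). In a fit of these groups alone AT4G13230 and DI21 were not called (0.060 and 0.45), nor was DI21 with the filter of 10 counts in 2 libraries (0.16). In the same contrast 6 of the 10 vegetative cell markers were lower and 1 was higher, the LEA regulator AREB3 was lower (-1.37) and the ABA phosphatase gene HAB1 was higher (0.63). Their part in the LEA changes was not tested.

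In sorted pollen, nrpd1a-3 FTL against WT FTL gave no call among the 34 LEA genes tested, where 0.008% of all features were called. At an unadjusted p under 0.05 there was 1 LEA gene with DESeq2 (ERD10) and 0 with edgeR. SAG21 had 450718 and 859709 normalised reads in WT FTL, compared with 726191 and 1879970 for nrpd1a-3 FTL. The groups overlapped, with a log2 fold change of 0.87 (95% interval -0.12 to 1.87). Both fractions were sorted together from the same plants, and SAG21 was higher in nrpd1a-3 FTL within both same-numbered pairs, as was DI21. With the replicate number as a block SAG21 was called (0.83, adjusted p = 0.012), along with 407 features in all against 2 without the block. That a number marks 1 sort is not given in the sources used here. DI21 had 114 and 191 in WT FTL, compared with 215 and 519 for nrpd1a-3 FTL, with a log2 fold change of 1.15 (SE 0.59, unadjusted p = 0.0501). AT3G02480 was at -0.03 (95% interval -1.09 to 1.02) and UNE15 at 0.02 (-0.96 to 1.00).

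ERD10 and 4 other cold-regulated LEA genes, grouped after their values were seen, had more than 3 reads in only 1 of the 4 sorted libraries. ERD10 and COR47 are tandem dehydrin genes, and COR15A and COR15B are tandem, closely similar genes of LEA_4 proteins that protect chloroplast membranes, so reads may be split between them. LTI30 is a basic dehydrin of cold-treated plants. In nrpd1a-3 FTL replicate 1 they had 274 (ERD10), 86 (COR47), 64 (COR15A), 54 (COR15B) and 56 (LTI30) reads. In nrpd1a-3 FTL replicate 2 and WT FTL replicate 1 all 5 had 0 reads, and in WT FTL replicate 2 COR47 alone had 2. No fold change is given for them, because the nrpd1a-3 FTL libraries disagree and WT FTL is at or under 3 reads.

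The same library differed from its pair in other genes. CBF1, a cold-induced activator of these genes, had 52 reads there and at most 2 in any other library, and CBF3 had 34 reads there and 0 in the other sorted libraries. The 6 other ABA and cold response genes together had 120 reads there and 0 to 10 in the other sorted libraries. The 10 leaf markers had 1046 reads there, against 50 in nrpd1a-3 FTL replicate 2 and 193 and 80 in WT FTL. The unsorted libraries held 841 to 1855 leaf marker reads and 20 to 340 reads of the 5 cold-regulated LEA genes. The part of leaf RNA in these values was not tested. In this contrast, calls of the 5 genes arose only with nrpd1a-3 FTL replicate 2 left out and rest on replicate 1 alone. The 5 were grouped with these reads known, so their pattern in this library is no test of a shared change.

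**Figure D4:**
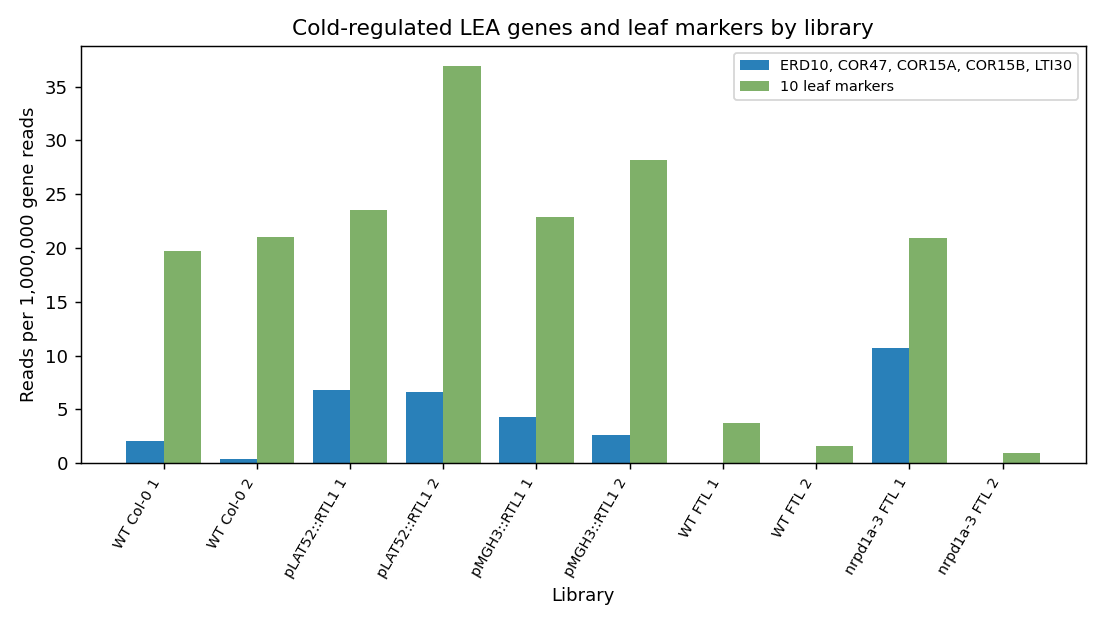
Reads per 1000000 gene reads of the 5 cold-regulated LEA genes (blue) and of the 10 leaf markers (green) in each library. nrpd1a-3 FTL replicate 1 is at 10.7 and 20.9, whereas nrpd1a-3 FTL replicate 2 is at 0 and 0.964.

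In WT FTL against WT Col-0 pollen, 8 of the 25 LEA genes tested (32%) were called, 3 higher and 5 lower. This was close to the share over all features, 30.3% (14.9% higher, 15.4% lower). AT2G23120 had 252 and 234 normalised reads in WT FTL against 36.0 and 43.3 (log2 fold change 2.61, SE 0.45, adjusted p = 1.6e-07). DI21 was higher by 2.44 (SE 0.65, adjusted p = 0.0013). ERD14, an acidic dehydrin, had 94.2 and 181 against 38.2 and 13.2 (2.43, SE 0.66, adjusted p = 0.0014). ERD14 was at 3.37 without WT Col-0 replicate 1 and was not called without WT Col-0 replicate 2 (1.83) or WT FTL replicate 2 (1.89).

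Among the 5 that were lower, RAB28 and AT5G27980 are SMP genes. AT5G27980 had 3595 and 3575 normalised reads against 8946 and 12127 (-1.56, SE 0.38, adjusted p = 4.0e-04). RAB28 had 16.6 and 24.8 against 83.2 and 116 (-2.27, SE 0.74, adjusted p = 0.0098) and was not called without WT Col-0 replicate 2 (-2.03) or WT FTL replicate 1 (-2.01). AT2G18340 fell by 2.01 on the log2 scale (SE 0.52), and shares 98 bases with HB24 on the other strand. AT2G46140 fell by 0.96 on the log2 scale (SE 0.38, adjusted p = 0.037) and was not called without any 1 of the 4 libraries (-0.90 to -1.04). ERD10 had 0 reads in both WT FTL libraries. Its WT Col-0 mean was 8.85-fold above a floor of 3 reads per library, but the WT Col-0 libraries differed (39.3 and 15.1). ERD10 was not called without any 1 of the 4 libraries.

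SAG21 was 1.965 higher on the log2 scale in WT FTL, with no overlap of the groups, but was not called (SE 0.89, adjusted p = 0.080). It was called in a fit of these 2 groups alone (1.99, adjusted p = 5.4e-06), with total-read scaling (1.81, adjusted p = 0.016) and with the filter of 10 counts in 2 libraries (adjusted p = 0.015). In WT FTL it ranked 11 among all genes per kb. AT3G02480 (0.17) and UNE15 (0.06) were not called, and their groups overlapped. In the same contrast 6 of the 10 vegetative cell markers were lower. Of the 10 leaf markers 2 were lower, RBCS3B (-2.98) and PSBO1 (0 reads in both WT FTL libraries, 4 and 6 in WT Col-0), and the 10 together had 193 and 80 reads in WT FTL, where the unsorted libraries held at least 841. Of the 6 ABA core genes tested, the phosphatase genes ABI1, HAB1 and PP2CA were lower (-1.31 to -1.73) and the kinase gene SNRK2.2 was higher (1.89). Of the 9 LEA regulators tested, EEL was lower (-1.22). The part of these genes and cells in the LEA changes was not tested.

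The effect of pLAT52::RTL1 was set against that of nrpd1a-3 FTL in a single fit of all 10 libraries. It differed for 5 LEA genes among 19 tested, higher for 3 and lower for 2, where 2.73% of all features were called (0.574% higher, 2.16% lower). Each effect was taken against its own wild type. The comparison thus also carries the difference between the experiments and the DsRed transgene, present in WT FTL only. The 5 genes were AT3G02480, AT2G23120, UNE15, SAG21 and DI21. edgeR called none of them, with 9 LEA genes at an unadjusted p under 0.05.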

How the data were processed

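Mature pollen RNA of 10 libraries (5 groups of 2) was sequenced, and the authors aligned the reads with STAR to TAIR10, as given in the methods and the submitters' processing notes. The deposited values are raw read counts per gene, TE and intergenic interval. The counting program, strand use and treatment of multiply mapped reads are not given in the sources used here. Between 65.7% and 74.8% of counts over 20 reads were even. Replicates were biological (independent lines for the constructs). The p-values rest on a spread per gene that all groups of a fit share, with 2 libraries per group. Per the methods, WT FTL and nrpd1a-3 FTL pollen was sorted together from the same plants, without tying replicate numbers to sorts, and deviations of same-numbered libraries correlated at 0.52 over 6951 features.

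Counts of 58583 genes and TEs were tested with DESeq2 1.42.0 (R 4.3.3) as in the study: Wald test, median-of-ratios factors, independent filtering and Benjamini-Hochberg adjusted p under 0.05. The 6 unsorted and 4 sorted libraries were fitted separately. Sorted against unsorted pollen and the difference of effects used all 10. Printed normalised reads use the factors of all 10 libraries. edgeR 4.0.16 and other scalings, filters, designs and left-out libraries were alternatives. Counts were simulated with a common spread, with changes placed only in genes of higher mean count. The rates thus do not cover LEA genes with few reads. The test recovered 5% of 2-fold and 64% of 8-fold changes for nrpd1a-3 FTL against WT FTL. It recovered 40% and 100% for pLAT52::RTL1 against WT Col-0, and 8% and 98% for WT FTL against WT Col-0. A lack of calls in sorted pollen thus does not show a lack of change. Length is the longest RefSeq transcript within the counted interval (98.2% of genes). Named genes are AT3G02480, SAG21, the 12 most abundant per kb in WT Col-0, every called member and up to 3 called genes of each other list. Others named singly (RAB18, EM1, GEA6, XERO1, ECP63, M10, M17, AT2G23110, LEA3, COR15A, COR15B, LTI30, COR47, the regulators) were chosen after their values were seen. Members and lists were chosen with earlier results of these data known.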

Additional observations from a re-analysis of the deposited data

Results flagged for a closer look

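The effect of pLAT52::RTL1 against WT Col-0 and that of nrpd1a-3 FTL against WT FTL differed for 5 LEA genes by the test of the difference itself (DESeq2, all 10 libraries, adjusted p under 0.05). On the log2 scale, the pLAT52::RTL1 effect exceeded the nrpd1a-3 FTL effect by 4.78 for AT3G02480 (SE 0.72, adjusted p = 2.0e-07), by 2.47 for AT2G23120 (SE 0.61, adjusted p = 0.0044) and by 2.16 for UNE15 (SE 0.64, adjusted p = 0.034). For SAG21 the difference was -4.46 (SE 1.26, adjusted p = 0.021) and for DI21 it was -4.07 (SE 0.99, adjusted p = 0.0034). Over all features 2.73% were called.

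Leaving out 1 library leaves its group with 1, assumed to vary like the other groups, so calls made that way show no stability. With 1 of the 8 libraries left out AT3G02480 was at 3.65 to 5.39, and DI21 was at -3.09 without pLAT52::RTL1 replicate 2 and -3.28 without nrpd1a-3 FTL replicate 2. Without pLAT52::RTL1 replicate 1, DI21 had 0 reads in the library that remained and no size is given. SAG21 was at -6.84 without pLAT52::RTL1 replicate 1 and -3.60 without replicate 2, and was not called without WT Col-0 replicate 1 (-4.40) or 2 (-4.48), WT FTL replicate 1 (-4.07) or nrpd1a-3 FTL replicate 2 (-3.59). AT2G23120 was not called without WT Col-0 replicate 1 (2.36) or pLAT52::RTL1 replicate 1 (1.79). UNE15 was not called without WT Col-0 replicate 1 (1.95), pLAT52::RTL1 replicate 1 (1.27), WT FTL replicate 1 (1.63) or nrpd1a-3 FTL replicate 2 (1.91). edgeR called none of the 5, with adjusted p from 0.070 (AT3G02480) to 0.18 (UNE15).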

How the results depend on the processing

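No direction of a called LEA gene turned under any setting. In pLAT52::RTL1 against WT Col-0 the 9 LEA calls became 6 to 9 without 1 library, and all features 701 to 2287. Scaling by total reads shifted the median of all features by 0.48 and gave 3294 calls (2874 higher, 420 lower, against 718 and 855). Against pMGH3::RTL1 the 9 LEA calls became 4 to 9 and all features 659 to 2047, and total-read scaling gave 3124 calls (2717 higher, 407 lower, against 580 and 773). For pMGH3::RTL1 against WT Col-0, 0 to 1 LEA genes and 1 to 4 features were called without 1 library. The 6 features became 1 with edgeR and 12 in a fit of these groups alone.

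In nrpd1a-3 FTL against WT FTL, leaving out 1 library gave 0 to 5 LEA calls and 1 to 42 features. The 2 features became 1 with total-read scaling, with genes only and with edgeR, 5 with the filter of 10 counts in 2 libraries and 28 in the fit of all 10 libraries. With the replicate number as a block, 407 features and 1 LEA gene (SAG21, 0.83, adjusted p = 0.012) were called. Deviations of same-numbered libraries correlated at -0.03 to 0.22 between unsorted groups, where nothing pairs the numbers. Blocking kept all 9 and 8 LEA calls of the other 3 contrasts with calls, and 4 of the 5 differences of effects (SAG21 was not called).

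In WT FTL against WT Col-0, the 8 LEA calls became 4 to 6 without 1 library, and all features 3013 to 5306. For the difference of effects, 2 to 6 LEA genes and 159 to 935 features were called without 1 library. The 5 LEA calls became 3 with no independent filtering, 8 with total-read scaling and 0 with edgeR. The 324 features became 1001 with total-read scaling (899 higher, 102 lower, against 68 and 256) and 0 with edgeR (1530 at an unadjusted p under 0.05), and total-read scaling shifted their median by 0.85.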
